A study of Mus musculus with 7 samples.

Results

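Perforin and the granzymes are the proteins by which cytotoxic lymphocytes kill. The 8 genes studied here encode these proteins or other parts of their granules. Their regulatory landscape was read from chromatin immunoprecipitation followed by sequencing (ChIP-seq) in resting CD8-positive T cells (CD8-TC) of the mouse. The genes were Prf1, Gzma, Gzmb, Gzmc, Gzmk, Gzmm, Srgn and Nkg7, named as cytotoxic effectors and not for their position in the lists. A region was assigned to a gene when its midpoint lay in the gene body or within 50 kb of either end, called the window below. The windows of the 8 genes held 9 of the 4934 Runx3-bound regions and 59 of the 76705 regions marked by monomethylation of lysine 4 on histone H3 (H3K4me1). Of the 59, 5 lay in the windows of both Gzmb and Gzmc and were counted once. The same windows were drawn for 22350 protein-coding genes and serve as background.

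CD8-TC came from spleens of WT ICR mice, an outbred strain, and cells of 18 mice were combined. They were taken on anti-CD8 magnetic beads (purity over 95% per the labels) and fixed when freshly isolated, which the study calls resting. Of the 7 libraries, 3 from 2 repeats were made with an antiserum against Runx3, 2 with an antibody against H3K4me1, and 2 with non-immune serum (NIS) as control. The animals' age is not given in the sources used here. Both repeats were joined before regions were called, so each antibody yielded 1 list of positions without height, read count or replicate value. The counts below therefore have no replicate error, no test between groups was possible, and the number of reads under any region is unknown. Intervals given are 95% Wilson intervals, which cover counting error only and treat neighbouring regions as independent.

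Killer lymphocytes store their weapons in secretory granules and release them at the contact with a target cell. Perforin forms pores in the target membrane, and granzymes are serine proteases that enter through them and cleave proteins of the target, which leads to cell death. Serglycin, the product of Srgn, is the proteoglycan on which granule proteins are packed, and Nkg7 is a protein of the granule membrane. Naive CD8-TC hold little of this machinery and build it after activation. Runx3 is a transcription factor of the RUNX family that binds TGTGGT and related words, and H3K4me1 is found around enhancers and flanking active promoters.

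The labelled cell type was checked against the marks at its defining genes. An H3K4me1-marked region lay within 5 kb of 5 of 5 genes of CD8 and CD3 chains, and a Runx3-bound region lay in the windows of all 5, which partly hold the same regions because the genes of each chain family are neighbours. H3K4me1 within 5 kb was also found at Cd4, at 3 of 3 B cell genes, 3 of 3 myeloid genes and 1 of 2 NK cell genes, and at 0 of 2 globin genes, beside 67.1% of protein-coding genes. Runx3 in the window was found for Cd4, for 2 of 3 B cell, 2 of 3 myeloid, 1 of 2 NK cell and 0 of 2 globin genes, beside 30.8% of all protein-coding genes. Ncr1, a receptor of NK cells, had no region of either list in its window. H3K4me1 does not measure expression, so these marks neither identify nor count other cells, and the part of such cells in the values below was not tested.

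Stretches from the bound regions are shown first, so that the RUNX words in them can be read. They were chosen by these words, since the lists give no summit. Capitals mark the RUNX motif, which was searched on both strands as the word TGTGGT, its variant TGTGGC, and the same words with TGC in place of the leading TGT. On the other strand the first word reads ACCACA. The variant reads GCCACA there. With TGC the words are TGCGGT and, as the variant, TGCGGC. Positions are those of build mm9, and each sequence runs 5′ to 3′ on the strand of its gene. The stretches hold no annotated exon. That of the inner start of Srgn lies 316 to 435 bp downstream of the start site at 61970503. The other TGTGGT of that bound region lies in an exon and is left out. Of the 9 bound regions, 6 are represented: the promoter and the downstream region of Prf1, both regions upstream of Gzmb, the inner start of Srgn and the promoter of Nkg7.
Prf1 promoter, chr10:60760397-60760516, plus strand: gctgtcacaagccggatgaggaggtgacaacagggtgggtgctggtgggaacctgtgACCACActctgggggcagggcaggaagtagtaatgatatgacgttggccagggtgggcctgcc
Prf1 downstream, chr10:60768874-60769172, plus strand: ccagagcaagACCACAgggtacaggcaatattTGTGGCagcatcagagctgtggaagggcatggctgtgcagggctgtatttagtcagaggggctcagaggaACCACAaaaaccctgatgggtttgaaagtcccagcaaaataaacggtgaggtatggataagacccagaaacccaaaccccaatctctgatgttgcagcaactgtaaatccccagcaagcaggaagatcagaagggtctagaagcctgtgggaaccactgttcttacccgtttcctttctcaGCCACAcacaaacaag
Gzmb upstream, nearer region, chr14:56915016-56915135, minus strand: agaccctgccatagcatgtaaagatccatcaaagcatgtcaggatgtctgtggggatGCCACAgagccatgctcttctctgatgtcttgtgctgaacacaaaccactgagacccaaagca
Gzmb upstream, farther region, chr14:56915812-56916062, minus strand: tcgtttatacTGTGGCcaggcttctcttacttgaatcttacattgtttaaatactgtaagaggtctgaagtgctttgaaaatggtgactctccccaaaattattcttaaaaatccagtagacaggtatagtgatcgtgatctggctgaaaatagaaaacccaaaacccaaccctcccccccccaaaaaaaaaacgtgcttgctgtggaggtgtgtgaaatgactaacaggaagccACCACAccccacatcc
Srgn inner start, chr10:61970068-61970187, minus strand, which reaches past the edge of the bound region: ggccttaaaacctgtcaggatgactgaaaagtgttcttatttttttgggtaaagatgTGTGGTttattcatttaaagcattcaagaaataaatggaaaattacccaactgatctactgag
Nkg7 promoter, chr7:50692149-50692440, plus strand: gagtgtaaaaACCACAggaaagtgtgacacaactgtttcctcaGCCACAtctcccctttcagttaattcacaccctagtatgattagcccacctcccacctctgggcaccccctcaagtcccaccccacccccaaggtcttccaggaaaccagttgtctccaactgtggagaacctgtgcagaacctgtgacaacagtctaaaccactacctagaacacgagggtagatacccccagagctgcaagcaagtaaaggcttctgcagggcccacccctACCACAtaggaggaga

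The 8 genes fell into a group of 4 with Runx3 in the window and a group of 4 without. Prf1 had 3 Runx3-bound regions, and Gzmb, Srgn and Nkg7 had 2 each. Gzma, Gzmc, Gzmk and Gzmm had 0. Of all protein-coding genes 30.8% had a Runx3-bound region in the window, 10.1% had 2 or more and 3.57% had 3 or more. With the margin of 50 kb and neighbours counted apart, all 4 bound genes had 2 or more regions. With neighbours within 1000 bp merged Gzmb and Nkg7 had 1 each, with 25 kb Gzmb had 0, and with 10 kb Gzmb had 0 and Srgn had 1, while Prf1 kept 3 in each case. With 8 chosen genes these counts were not tested. Runx3 lay within 1 kb of an annotated transcription start site (TSS) of 3 of the 8 genes, Prf1, Srgn and Nkg7, against 5.11% of protein-coding genes. It overlapped the gene body of the same 3, against 10.4%. Gzmb was the bound gene with neither.

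**Figure D1:**
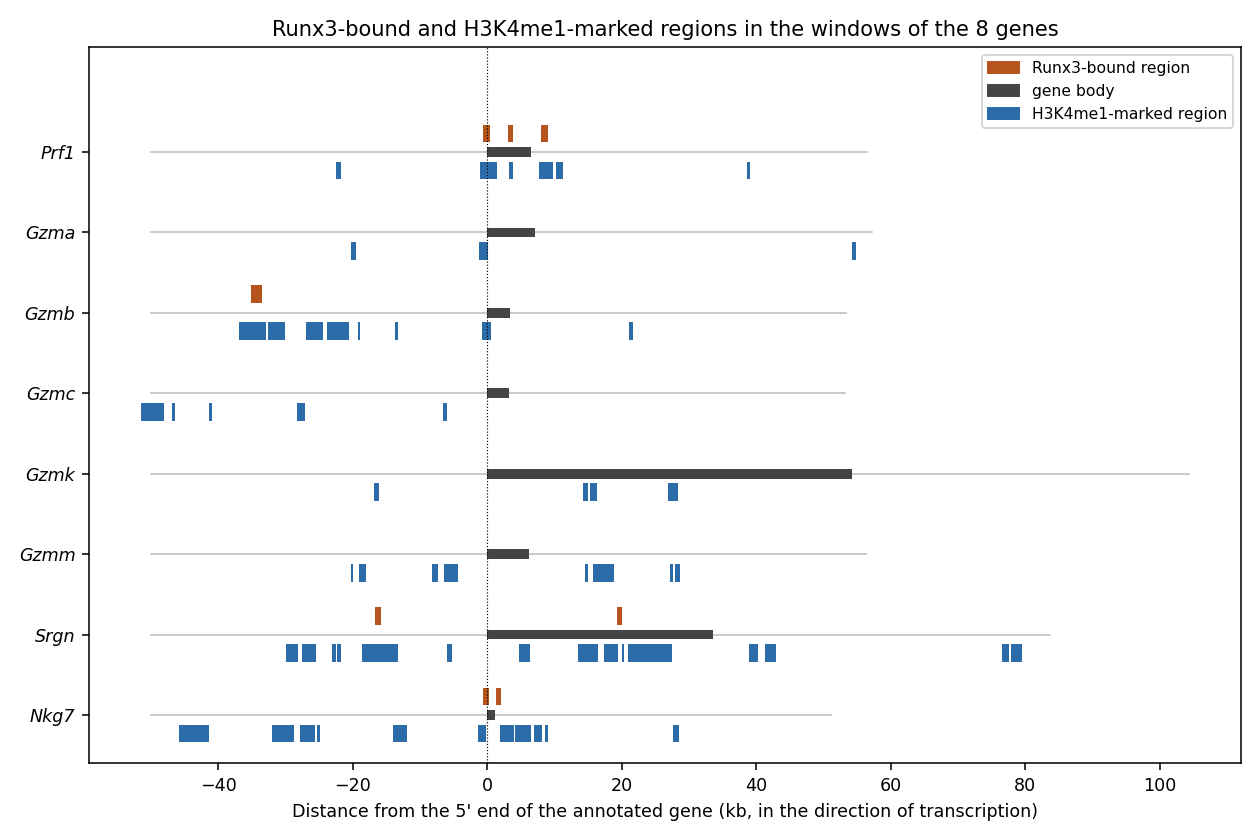
Positions of Runx3-bound regions (brown, above each gene) and H3K4me1-marked regions (blue, below) in the windows of the 8 genes, in kb from the 5′ end of the annotated gene (dark bar), with transcription to the right and the thin line showing the window. Runx3 is drawn at Prf1, Gzmb, Srgn and Nkg7 and at none of the other 4 genes, and the pair upstream of Gzmb, 26 bp apart, merges into 1 bar at this scale.

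H3K4me1 was present in the windows of 8 of 8 genes, beside 79.3% of protein-coding genes, and its amount varied widely among them. Srgn had 17 regions, Nkg7 had 13, Gzmb and Gzmm had 8 each, Prf1 had 6, Gzmc had 5, Gzmk had 4 and Gzma had 3. The median over the 8 genes was 7.0, and that over protein-coding genes was 7.0 with quartiles of 2 and 13. The share of the window under H3K4me1 gave the same order with this margin and parted Gzmb from Gzmm. It was 22.8% at Srgn, 20.5% at Nkg7, 14.4% at Gzmb, 8.68% at Gzmm, 7.22% at Prf1, 4.38% at Gzmc, 2.50% at Gzmk and 2.39% at Gzma. The median was 7.95%, against 5.96% over protein-coding genes (quartiles 0.918% and 13.5%). With 25 kb it was 12.5%, against 5.76%. Srgn, Nkg7 and Gzmb lay above the upper quartile, and no member lay below the lower one. The order depended on the margin, and of these 3 genes Srgn alone lay above the upper quartile with each margin tried. With 10 kb the cover was 35.3% at Nkg7, 31.6% at Srgn, 24.7% at Prf1, 14.9% at Gzmm, 5.61% at Gzmb, 4.57% at Gzma, 4.31% at Gzmk and 2.56% at Gzmc, beside a median of 5.89% and an upper quartile of 15.5% over protein-coding genes. Nkg7, Srgn and Prf1 lay above that quartile. Cover was higher with 10 kb than with 50 kb at 6 of the 8 genes and lower at Gzmb and Gzmc. With 25 kb Gzmm (16.4%) passed Gzmb (12.2%), and Srgn (28.0%), Nkg7 (18.8%) and Gzmm lay above the upper quartile of 14.1%. With 100 kb the cover was 16.2% at Srgn, 11.9% at Nkg7, 9.77% at Gzmm, 7.93% at Prf1, 7.66% at Gzmb and at Gzmc, 5.94% at Gzma and 2.29% at Gzmk, and Srgn alone lay above the upper quartile of 13.1%. With 50 kb a cover as large as that of Srgn was found for 9.65% of protein-coding genes. One as large as that of Nkg7 was found for 12.4%, and as large as that of Gzmb for 22.8%. Prf1 did not stand out by this measure with 50 kb, since 44.6% of genes had as much. Without replicate lists the order of neighbours such as Gzmk and Gzma cannot be set against an error.

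**Figure D2:**
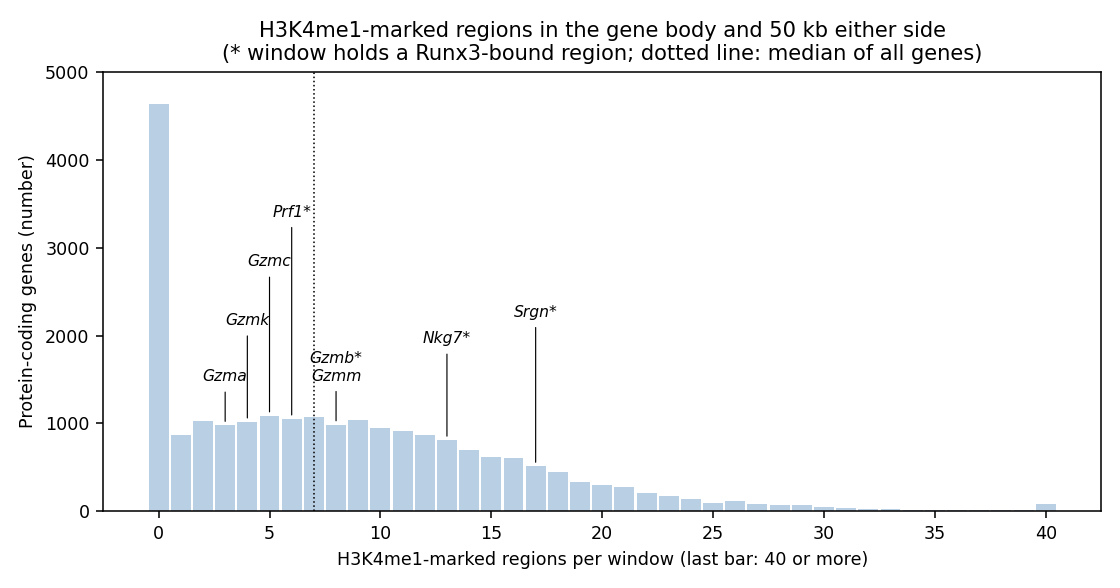
Number of protein-coding genes (y axis) by the number of H3K4me1-marked regions in the window (x axis), with the 8 genes pointed out, an asterisk where the window held Runx3 and a dotted line at the median of 7.0. Gzma, Gzmk, Gzmc and Prf1 lie below the median, Gzmb and Gzmm just above it, and Nkg7 and Srgn to its right.

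A window can hold marks that lie nearer to other genes. The TSS nearest to the midpoint was that of the gene itself for 10 of the 17 H3K4me1-marked regions of Srgn, 7 of the 8 of Gzmb, 2 of the 6 of Prf1, 1 of the 13 of Nkg7, 1 of the 5 of Gzmc, 1 of the 4 of Gzmk, 1 of the 3 of Gzma and 0 of the 8 of Gzmm. The window of Nkg7 held 7 protein-coding genes, and its other 12 marks lay nearest to Siglecg, Lim2, Cldnd2, Etfb and Vsig10l. All 8 marks in the Gzmm window, which holds 8 protein-coding genes, were nearest to Gm16517, Cdc34, Bsg or Hcn2. The 9 Runx3-bound regions lay at 4 of the 8 genes, and no background share was counted for them. The TSS nearest to 8 of the 9 was that of the gene to which they were assigned. The exception was the downstream region of Prf1, nearest to Rpl27a-ps1, a ribosomal protein pseudogene by its symbol that the annotation types as protein-coding.

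Prf1 encodes perforin, the pore former. The gene (ENSMUSG00000037202.5) lies at chr10:60760584-60767011 on the plus strand, and its 3 Runx3-bound regions lay at the promoter, in an intron and beyond the 3′ end. The promoter region, chr10:60759959-60760916, was 958 bp wide, covered the TSS and had its midpoint 147 bp upstream of it. It was covered by H3K4me1 over 100% of its length, inside a marked region of 2634 bp. It held 1 TGTGGT and 1 TGTGGC, and the TGTGGT is the word in capitals in the Prf1 promoter sequence above.

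The intronic region of Prf1, chr10:60763624-60764335, was 712 bp wide, lay 3395 bp downstream of the TSS and held 1 TGTGGT. H3K4me1 covered 77.9% of it, in a marked region of 651 bp. The third region, chr10:60768565-60769569, was intergenic, 8483 bp from the TSS and 1005 bp wide, the widest of the 9. It lay entirely under a marked region of 2160 bp and held 6 RUNX motifs, 2 TGTGGT and 4 TGTGGC, of which 4 fall in the stretch printed above. A RUNX count this high was found in 6.16% of the Runx3 list. The gaps between the 3 bound regions were 2707 and 4229 bp, and 4 of the 6 H3K4me1-marked regions of Prf1 lay within 10 kb of the gene.

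Gzmb encodes granzyme B, the granzyme that cleaves caspases and their substrates, and lies at chr14:56877693-56881097 on the minus strand (ENSMUSG00000015437.4). Its TSS was covered by an H3K4me1-marked region of 1312 bp, chr14:56880549-56881860, but the nearest edge of a Runx3-bound region was 33470 bp from the TSS. The bound regions of Gzmb formed a pair in intergenic sequence far upstream. The nearer, chr14:56914567-56915570, was 1004 bp wide with its midpoint 33971 bp upstream, and the farther, chr14:56915597-56916260, was 664 bp wide with its midpoint 34831 bp upstream. They were 26 bp apart, so that with neighbours merged they would be 1 site. The nearer held 2 TGTGGC, and the farther held 1 TGTGGT, 1 TGTGGC and 1 TGCGGC. The TGCGGC was the only occurrence of that word among the 22 RUNX motifs of the 9 regions.

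Both regions lay under the same H3K4me1-marked region of 3941 bp, wider than all but 4.86% of the list. It was the outermost of 4 wide marked regions, of 3322, 2467, 2542 and 3941 bp, that followed each other from 20.5 to 36.9 kb upstream of Gzmb. Together they spanned 16388 bp (chr14:56901611-56917998) and covered 74.9% of it. Runx3 was called in only the outermost of the 4. No other protein-coding TSS was nearer to any of these regions than that of Gzmb, although distance does not show which gene a region acts on. The windows of Gzmb and Gzmc overlap, and the innermost region of this block was also counted for Gzmc.

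Srgn encodes serglycin, and its gene (ENSMUSG00000020077.8) spans chr10:61956581-61990199 on the minus strand with TSSs at its outer end and, inside, at 61970503, 61970686 and 61970845. Runx3 was found at the inner TSSs and not at the outer ones. The inner region, chr10:61970120-61970990, was 871 bp wide with its midpoint 52 bp upstream of the TSS at 61970503, and held 2 TGTGGT. The other region, chr10:62005951-62006916, was 966 bp wide, lay 16234 bp upstream of the outer TSS in an intron of the neighbouring gene 2510003E04Rik, and held 1 TGTGGT. It was covered entirely by an H3K4me1-marked region of 3182 bp.
A marked region of 6487 bp in the body of Srgn, chr10:61962739-61969225, was the widest of the 59, and 1.39% of the list was as wide.

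Nkg7 is a small gene at chr7:50692443-50693616 on the plus strand (ENSMUSG00000004612.7), and Runx3 was called at both of its ends. The promoter region, chr7:50691764-50692722, was 959 bp wide, covered both annotated TSSs (50692443 and 50692500) and held 2 TGTGGT and 1 TGTGGC, all shown above. It also held AGGTGTGA, a word bound by T-box factors, 2 times, and it was the only 1 of the 9 regions with this word, which occurred in 4.30% of the list. The other region, chr7:50693705-50694543, began just past the 3′ end, was 839 bp wide and held 1 TGTGGT and 1 TGTGGC. The gap between them was 982 bp.

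**Figure D3:**
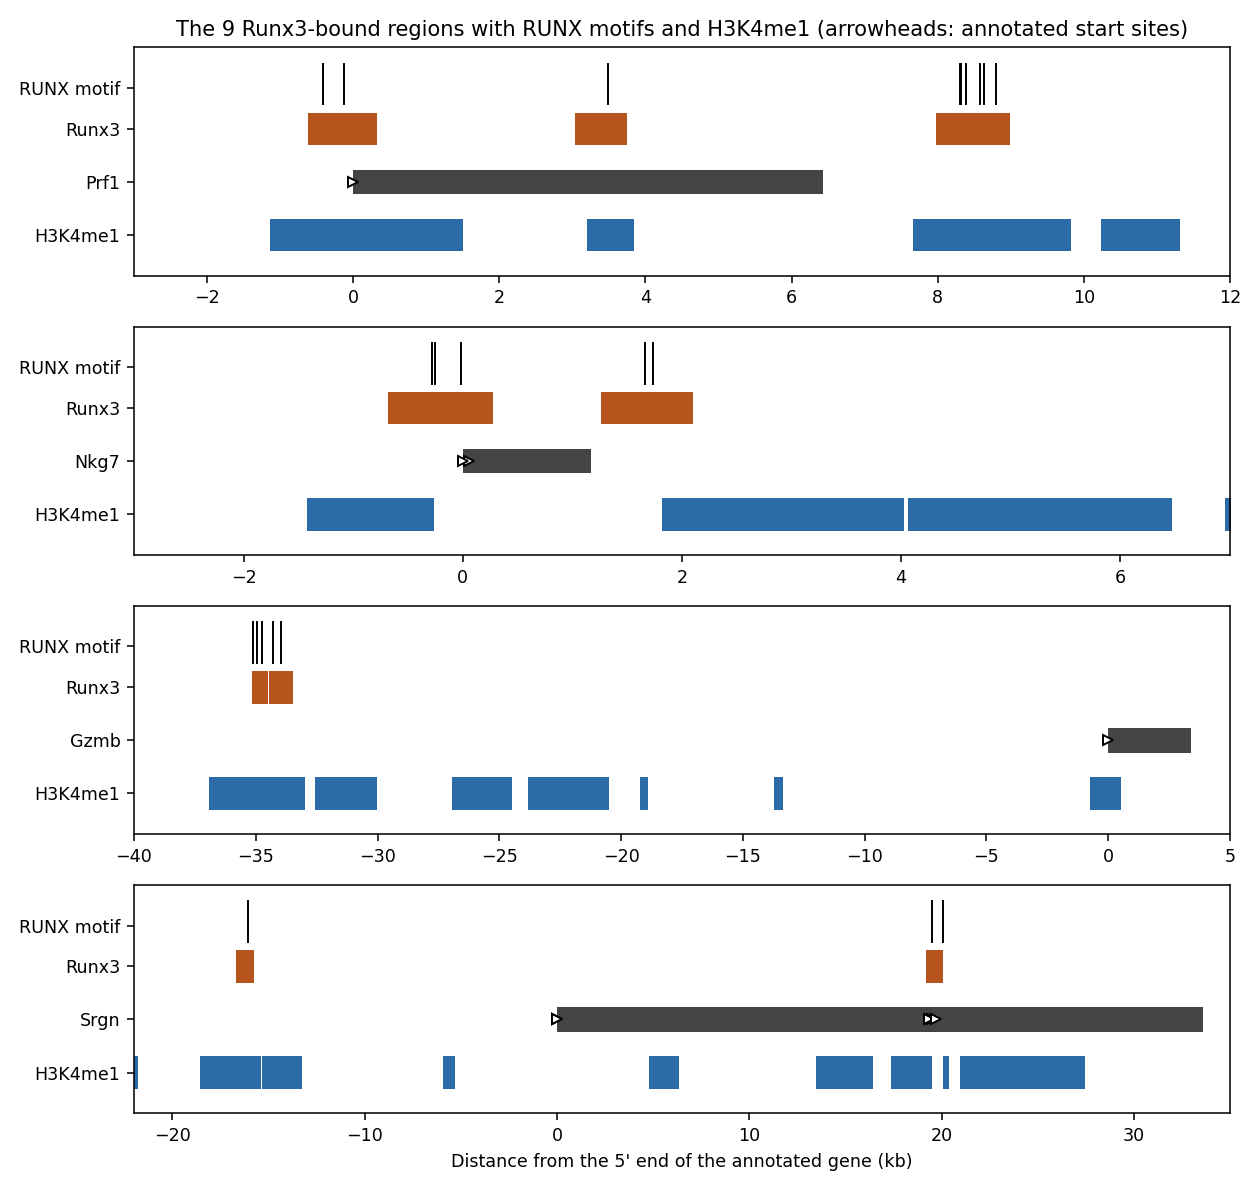
The 9 Runx3-bound regions (brown) at Prf1, Nkg7, Gzmb and Srgn with the RUNX motifs inside them (black ticks), the gene body (dark, with arrowheads at annotated start sites) and H3K4me1-marked regions (blue), in kb from the 5′ end of the gene, each panel on its own scale. The motifs bunch in the downstream region of Prf1, and the Runx3-bound regions at the Nkg7 promoter and at the inner starts of Srgn lie over gaps in H3K4me1.

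All 9 Runx3-bound regions of these genes overlapped H3K4me1 (interval 70.1 to 100%), beside 78.8% of the whole list. The overlap had 2 forms. At Prf1, at Gzmb and upstream of Srgn the midpoint of the bound region lay inside the mark, which was so for 6 regions (66.7%, interval 35.4 to 87.9%, beside 66.1% of the list). The mark covered 50% or more of the same 6 regions, beside 68.8% of the list. At Nkg7 and at the inner starts of Srgn the midpoint of each of the other 3 regions lay in a gap between marks. H3K4me1 covered 43.5% of the Nkg7 promoter region, 33.6% of the region past its 3′ end and 36.3% of the inner Srgn region. The gap at Nkg7, chr7:50692181-50694261, was 2081 bp long and held the whole gene. The gap at Srgn, chr10:61970143-61970697, was 555 bp long and held the inner TSSs at 61970503 and 61970686. The promoter of Prf1 had no such gap, since its TSS lay inside the mark of 2634 bp. Other histone marks at these promoters were not analysed here.

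Seen from the marks, 9 of the 59 H3K4me1-marked regions overlapped Runx3 (15.3%), beside 5.49% of the list. Their median width was 2160 bp, and that of the marked regions without Runx3 was 1076.0 bp. Wider regions have more room to overlap another region, and the part of width in this difference was not tested.

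A RUNX motif was found in 9 of 9 bound regions (interval 70.1 to 100%), beside 88.8% of the list, and in the 200 bp around the midpoint in 6 of 9, beside 66.0%. The RUNX words are short, and no share over unbound sequence of this width stands beside these counts. The median was 2 motifs per region, as in the list (2.0), and 3 of 9 regions held 3 or more, beside 45.4%. The 22 motifs comprised 11 TGTGGT, 10 TGTGGC, 0 TGCGGT and 1 TGCGGC. By region, TGTGGT was found in 8 of 9 (70.7% of the list), TGTGGC in 6 of 9 (51.3%), TGCGGT in 0 of 9 (20.0%) and TGCGGC in 1 of 9 (14.1%). Promoter-proximal regions, with the midpoint under 1 kb from a TSS, were 3 of the 9 (20.7% of the list). These 3, at Prf1, Srgn and Nkg7, had TGTGGT and neither TGCGGT nor TGCGGC, whereas among the 1022 such regions of the list 60.0% held TGCGGT or TGCGGC and 78.3% held TGTGGT or TGTGGC. Motifs of other factors were as follows. GGAA, the core of ETS sites, was found in 9 of 9 regions, but it is short and was found in 99.9% of the list. Its number ranged from 5 in the Prf1 intron to 18 at the Prf1 promoter. TGAGTCA, an AP-1 word, was found in 1 of 9 regions, the nearer Gzmb region, beside 16.5% of the list. The bound regions were 664 to 1005 bp wide, with a median of 958 bp against 851.0 bp in the list.

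The granzyme genes without Runx3 differed in how far the nearest regions lay. Gzma encodes granzyme A, a protease that cuts after basic residues, and lies at chr13:113884033-113891187 on the minus strand (ENSMUSG00000023132.6). Its TSS was covered by an H3K4me1-marked region of 1240 bp, and the nearest Runx3-bound region was 534871 bp away. Gzmk, granzyme K, lies on the same stretch of chromosome 13 (chr13:113961816-114016116, minus strand, ENSMUSG00000042385.8). The nearest Runx3-bound region was the same one, 409942 bp from its outer TSS, and the nearest mark began 14174 bp inside the gene. The long body of Gzmk follows a transcript that spans the gene Esm1, whose TSS was the nearest to 3 of the 4 marks. The annotated TSS of the shorter Gzmk transcript, at 113971105, had no H3K4me1-marked region within 1 kb.

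Gzmm, granzyme M, lies at chr10:79151765-79158006 on the plus strand (ENSMUSG00000054206.2). The nearest H3K4me1-marked region was 4303 bp from its TSS and the nearest Runx3-bound region 165092 bp. Gzmc, granzyme C, lies at chr14:56850238-56853493 on the minus strand (ENSMUSG00000079186.2), next to Gzmb. Its nearest mark was 5936 bp upstream, and its nearest Runx3-bound region was the pair upstream of Gzmb, 61074 bp away and outside the window. All 5 marks counted for Gzmc also lay in the Gzmb window. H3K4me1 within 1 kb of a TSS was thus found for 5 of the 8 genes, Prf1, Gzma, Gzmb, Srgn and Nkg7, beside 58.4% of protein-coding genes. Marks overlapped the body of the same number, 5, beside 62.4%.

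Gzmc stands at the edge of a long stretch without either signal. From chr14:56519977 to 56859428, over 339.5 kb, the lists held no H3K4me1-marked region and 0 Runx3-bound regions. Gaps between neighbouring H3K4me1-marked regions had a median of 2578 bp, and 1.42% of 76685 were as long. This share counts gaps and not sequence or genes. Of the 22350 protein-coding genes, 4631 had no H3K4me1-marked region in the window. The stretch holds 14 protein-coding genes, all of them serine proteases of the granzyme, mast cell protease and cathepsin G family: Gzmc, Gzmd, Gzme, Gzmf, Gzmg, Gzmn, Ctsg, Cma1, Cma2, Mcpt1, Mcpt2, Mcpt4, Mcpt8 and Mcpt9. Gzmb is the gene just beyond its end, and the first mark towards it is the one 5936 bp upstream of Gzmc.
Parts of this stretch recur elsewhere in the genome, and only uniquely aligned reads were used for the lists. The share of 40-base words that occur once in the genome was 74.0% in the stretch. It was 66.2% in the Gzmc window and 78.7% in the Gzmb window, 89.4% at Gzma and 91.4% at Gzmk, and between 94.4 and 96.7% at Prf1, Gzmm, Srgn and Nkg7. Windows of 45 genes taken at even steps through the annotation had a median of 91.5% (quartiles 88.4 and 94.4%). Over gene bodies alone the share was 74.3% in Gzme, 77.9% in Gzmd, 79.1% in Gzmg and in Gzmc, 89.7% in Gzmf and 96.7% in Gzmn, against 95.2% in Gzmb. None of these 6 granzyme genes of the stretch, Gzmb left aside, had a mark within 5 kb, beside 67.1% of protein-coding genes with one. The part of unalignable sequence in the empty stretch was not tested further.

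The promoters of most of these genes hold a RUNX motif whether or not Runx3 was called there. In RefSeq promoters (build GRCm38.p6, 250 bases before to 50 after the start), a RUNX motif on either strand was found in 8 of the 10 promoters of the 8 genes, beside 45.2% of all 32851 promoters. At least 1 promoter held it in 7 of the 8 genes, and Gzmk was the exception. Among the 4 granzyme genes without a Runx3-bound region 3 had the motif, which started 50 bases before the start of Gzma, at -174 and -108 in Gzmc, and at -247 and -183 in the 2 promoters of Gzmm. It started at -130 in Prf1, at -93 and -34 in Gzmb, at -202 in 1 promoter of Srgn and at -83 in Nkg7. Of the other granzymes on chromosome 14, Gzmd, Gzme, Gzmf and Gzmg had 2 motifs each and Gzmn had 0.
The stretches between the motifs are shown to compare Gzmb, whose TSS was marked by H3K4me1, with Gzmc, Gzme and Gzmf, whose TSSs were not. They are from RefSeq, run 5′ to 3′ on the strand of the gene, and carry the RUNX motif in capitals.
Gzmb promoter: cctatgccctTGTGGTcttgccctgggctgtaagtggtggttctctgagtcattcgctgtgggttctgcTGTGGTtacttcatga
Gzmc promoter: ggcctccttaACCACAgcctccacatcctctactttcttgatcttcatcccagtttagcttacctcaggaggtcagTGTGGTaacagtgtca
Gzme promoter: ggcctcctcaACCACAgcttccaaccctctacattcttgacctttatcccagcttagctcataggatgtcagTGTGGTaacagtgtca
Gzmf promoter: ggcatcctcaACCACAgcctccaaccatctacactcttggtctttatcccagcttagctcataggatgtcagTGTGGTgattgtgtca
In Gzmc, Gzmd, Gzme, Gzmf and Gzmg the first motif reads on the strand opposite to the gene and the second on the strand of the gene. Their starts are 66 bases apart in Gzmc and 62 in each of the other 4. In Gzmb both read on the strand of the gene and start 59 bases apart. None of these 6 promoters lay in a Runx3-bound region of resting CD8-TC. A motif here is a match of letters in a window and not a binding site, and no match in Gzmk and Gzmn says only that these letters are absent from that window.

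Other genes of the granule pathway were counted from fixed lists. The 5 other granzymes had 0 with Runx3 in the window and 1 with H3K4me1, Gzmf, with 1 region, the mark upstream of Gzmc. Of 8 neighbouring mast cell proteases and cathepsin G, 0 had Runx3 and 1, Cma1, had H3K4me1. Of the genes that mature or fill granules 5 of 10 had Runx3, beside 30.8% of protein-coding genes, and 10 of 10 had H3K4me1, beside 79.3%, at a median of 11 regions per window. Runx3 was at the TSS of Cst7, an inhibitor of cathepsins in granules, where a region had its midpoint 84 bp upstream, and at the TSS of Calr, the chaperone calreticulin, with its midpoint 125 bp upstream. Lyst, a regulator of lysosome size, had 2 regions upstream. The regions in the windows of Ctsw and Lamp1 were nearest to Snx32 and Grtp1. Ctsc and Ctsh, cathepsins that activate granzymes by trimming them, had no Runx3 but 13 and 12 marks.

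Genes of granule release had Runx3 in 5 of the 8 that were found in the annotation under the listed symbol (Vamp7 was not) and H3K4me1 in 8 of 8, beside 30.8% and 79.3% of protein-coding genes, with a median of 15.0 regions. Sytl2, an adaptor that tethers granules through Rab27a, had 4 Runx3-bound regions, of which 3 overlapped H3K4me1. The TSSs nearest to them were those of Ccdc83, Crebzf and Sytl2, and 2 of the 4 lay in Sytl2 or within 5 kb of it. Rab27a had 2 Runx3-bound regions, nearest to 2410004A20Rik and Pigb, although 1 of them lay in the body of Rab27a. Unc13d, Stxbp2 and Sytl3 had 1 each, of which only that of Sytl3 was nearest to its own gene. The 4 serpin genes that inhibit granzymes, Serpinb9, Serpinb6a, Serpinb6b and Serpinb9b, had 0 with Runx3 (30.8% of protein-coding genes) and 4 with H3K4me1 (79.3%), at 8 to 14 regions. With 50 kb median H3K4me1 cover was 11.7% for maturation and content, 13.6% for release and 10.4% for the inhibitors, against 7.95% for the 8 effector genes, 0% for the other granzymes and 5.96% for all protein-coding genes. The lists are short, other margins were tried only for the 8 effector genes and for all genes, where the medians were 12.5% and 5.76% with 25 kb, and differences between the lists were not tested.

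**Figure D4:**
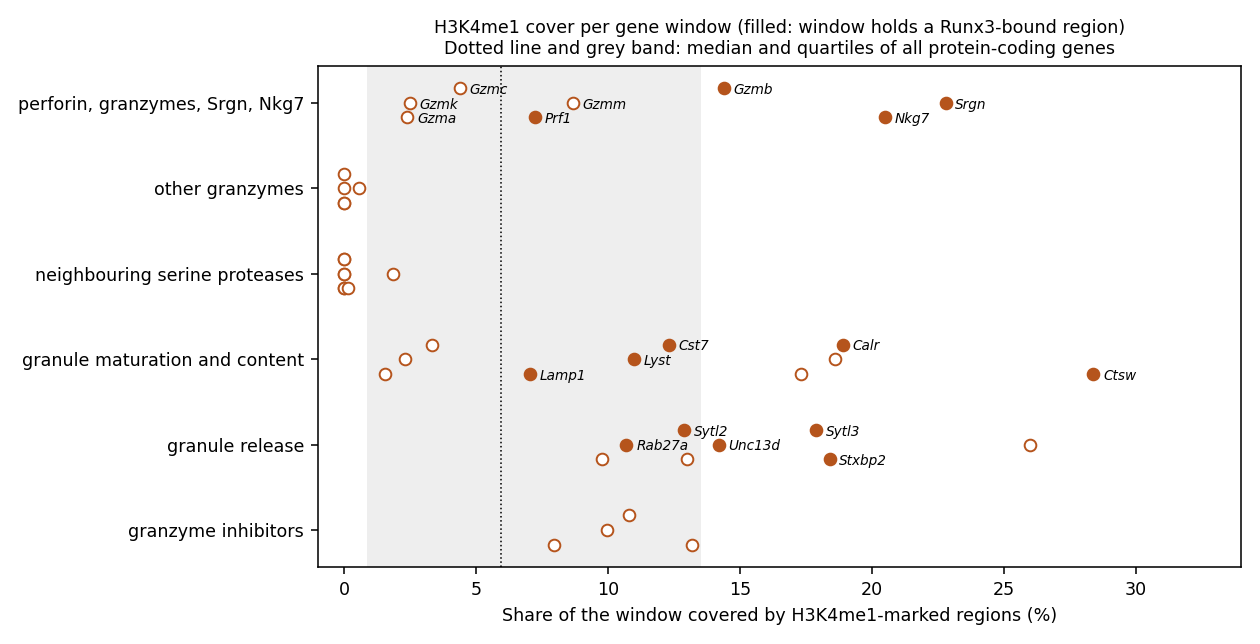
Share of each gene's window covered by H3K4me1 (x axis, %) for the 8 effector genes and 5 lists of related genes (y axis), 1 point per gene, filled where the window held a Runx3-bound region, with the median (dotted line) and quartiles (grey band) of all protein-coding genes. Among the effector genes Srgn, Nkg7 and Gzmb lie right of the band, and the other granzymes and neighbouring proteases sit at or near 0.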

How the data were processed

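ChIP-seq reads of resting CD8-TC were processed by the authors, who aligned them to mm9 with ELAND, kept unique alignments, joined repeats and called peaks with MACS against NIS. CASAVA 1.6 and 1.7 are named in the submitters' processing notes. The deposited lists hold positions in bp (a start and an end per region) and a region name, with no score or count. Starts were shifted by 1 bp to browser positions. The NCBIM37 genome sequence (build mm9) and its GENCODE annotation were used. Region midpoints were assigned to gene bodies with a margin of 50 kb, and an overlap was 1 bp or more. Motifs were searched as exact words on both strands, and the TSS window was 1 kb either side. Printed genomic stretches were those with most RUNX motifs that fitted, with flanks of 10 bases, into 300 bases without an exon (ties by nearness to the midpoint), and shorter ones were widened to 120 bases. Python 3.11.15, numpy 2.4.6, scipy 1.17.1 and matplotlib 3.10.9 were used, and the counting was tested on simulated data. No test was made because each antibody gave 1 pooled list. The 8 genes, the gene lists and the alternatives were chosen with earlier results of these data known. All members, and every region in their windows, were reported, and no gene was filtered.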

Additional observations from a re-analysis of the deposited data

How the results depend on the processing

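The count of Runx3-bound regions and of genes holding one moved by at most 1.5 times under every margin and assignment tried. It was 6 to 12 regions in 3 to 5 genes, with Gzmb losing its pair at 10 and 25 kb and Gzmc gaining that pair at 100 kb, while the share of protein-coding genes with Runx3 went from 15.5% at 10 kb to 44.1% at 100 kb. The 59 H3K4me1-marked regions became 27 with a margin of 10 kb, 96 with 100 kb, 23 by nearest protein-coding TSS and 36 with neighbours within 1000 bp merged. The median H3K4me1 cover of 7.95% became 12.5% with 25 kb. Of 71 alternatives 45 stayed within 1.5 times and 26 did not. For the share of protein-coding genes with a Runx3-bound region the limit was its interval instead. The shorter transcripts of Gzmk and Srgn, an alternative chosen after seeing the data, gave 3 marks in place of 4 for Gzmk and the same counts for Srgn. No paired analysis was possible because both repeats were joined before the calls, which also prevented leaving a repeat out. Peak height, depth per region and thresholds could not be varied from positions alone, so that a gene without a region had none called at this depth.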
